A study of Mus musculus with 24 samples.

Results

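RNA-Seq of the hippocampus (HIP) was compared between 6 Ts65Dn mice and 6 wild-type (wt) littermates, 12 of the 24 libraries of the series, with genotype and replicate number read from the sample labels. Ts65Dn mice carry an additional small chromosome made of the distal part of mouse chromosome 16 (Mmu16), which holds many orthologues of human chromosome 21 genes, joined to the centromeric part of chromosome 17 (Mmu17). All mice were males of 5 to 6 months on an F1 B6C3B background. The Ts65Dn line came from The Jackson Laboratory, and the hippocampi were flash frozen. The members described are the protein-coding genes outside the triplicated segments, with the segments taken as chr16 from 84 Mb to its end and chr17 from its start to 10 Mb (GRCm38). Of the 55385 genes in the count table, 21713 were such genes, and 14416 of them had enough reads to be tested with 6 mice against 6. The wt mice are disomic littermates of the same background, both segments are triplicated together in Ts65Dn, and a change outside them cannot be assigned to one triplicated gene.

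The HIP is the site of the dentate gyrus and of the CA fields, whose granule and pyramidal cells pass input from the entorhinal cortex through the trisynaptic circuit and serve spatial and recognition memory. A trisomy raises the dose of the genes on the extra chromosome, and genes on all other chromosomes keep their copy number but can change in transcript level. The Mmu16 segment carries receptor subunits for interferons, and interferon-stimulated genes, which code for antiviral proteins, proteases of the ubiquitin-like ISG15 system and antigen presentation proteins, are the textbook targets of those receptors.

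The labels were first checked with the triplicated genes. In 5 of the 6 Ts65Dn libraries, the median ratio to the wt mean lay between 1.43 and 1.53 over 82 Mmu16 genes and between 1.37 and 1.51 over 30 Mmu17 genes. In the library labelled Ts65Dn replicate 3, the ratios were 1.02 and 0.974, while single wt libraries had 0.986 to 1.01 on Mmu16 and 0.896 to 1.02 on Mmu17. The entorhinal cortex library of that number also lay at the wt level (0.991 and 0.957). That library goes against its label. The counts are therefore given with 6 Ts65Dn libraries and with the other 5, and single genes with the set of libraries stated beside them. Library totals were 23128589 to 40476492 counts on genes. The defining markers of the region were present in each library. Prox1 of dentate granule cells had 132 to 167 CPM (counts scaled to library size) in wt and 109 to 182 CPM in Ts65Dn, and Fibcd1 of CA1 had 144 to 169 and 96.9 to 182 CPM. Tissue next to the HIP was in the libraries in differing amounts. The choroid plexus gene Ttr had 58.8 to 4736 CPM in wt and 19.8 to 4924 CPM in Ts65Dn, and the habenular gene Gpr151 had 0.869 to 33.7 and 1.05 to 13.4 CPM, so both ranges overlapped.

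Outside the triplicated segments few protein-coding genes passed the test, and their changes were small. With 6 mice against 6, 85 of the 14416 genes tested were differentially expressed (DEGs, with an adjusted p below 0.05 in the quasi-likelihood test of edgeR), which is 0.59% of them: 34 were higher in Ts65Dn (0.236%) and 51 lower (0.354%). The median log2 fold change of the higher DEGs was 0.30 and that of the lower ones was -0.31, against 0.009 over all genes tested. Without the library labelled Ts65Dn replicate 3, 191 of 14445 genes were DEGs (1.32%), 97 higher (0.672%) and 94 lower (0.651%), and 79 of the 85 DEGs were among them. The CPM of Ts65Dn and wt did not overlap in 65 of the 85 DEGs, 28 higher and 37 lower; over all genes tested, 0.583% lay wholly above wt and 0.839% wholly below. Without that library, 163 of the 191 DEGs did not overlap, 86 higher and 77 lower, against 1.63% and 1.44% of all genes tested. DESeq2 called more genes, 416 (2.96%) with all libraries and 658 (4.83%) without that library. In simulated counts edgeR found 61.5% of 200 genes changed 1.5-fold with all libraries and 55% without that library. The counts of DEGs are therefore not counts of all genes that changed. The edgeR count rested on single mice: it fell to 13 without Ts65Dn replicate 6, to 15 without wt replicate 3 or wt replicate 6, and to 17 without Ts65Dn replicate 1. It was 19 without wt replicate 5, 23 without wt replicate 2, 24 without Ts65Dn replicate 4, 43 without wt replicate 4 and 54 without wt replicate 1.

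The direction of the change followed the base composition of the transcripts. The exons of the 34 higher DEGs had a median GC content of 56.6%, those of the 51 lower DEGs of 40.1%, and those of all genes tested of 49.9%. Over all genes tested, the median log2 fold change rose from -0.17 in genes with under 38% GC (314 genes) to 0.12 in genes with 60% or more (676 genes). In single libraries, the median level of the 2693 genes with at least 56% GC, relative to the wt mean, exceeded that of the 1731 genes with under 42% by 0.30, 0.31 and 0.30 (log2 scale) in Ts65Dn replicates 1, 4 and 6. It did so by 0.16 in the library labelled Ts65Dn replicate 3, and by 0.036 and 0.073 in Ts65Dn replicates 2 and 5. The same difference ran from -0.14 to 0.14 in the 6 wt libraries, so that Ts65Dn replicates 2 and 5 lay within the wt range and the other 4 above it. With a smooth trend on GC content and exonic length removed from each library, 24 genes were DEGs with all libraries and 18 of the 85 remained, and 76 were DEGs without the library labelled Ts65Dn replicate 3, where 60 of the 191 remained. The part of base composition in single genes was not tested beyond this fit, and its adjusted p is given below for genes that it left without a call.

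**Figure D1:**
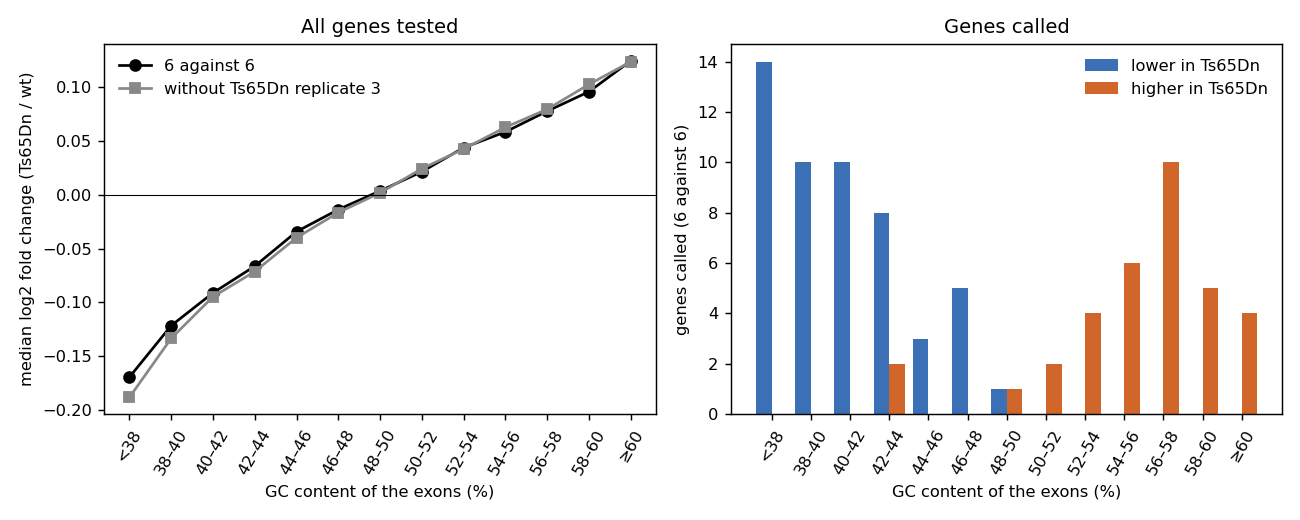
Left, median log2 fold change (Ts65Dn over wt) of the protein-coding genes tested outside the triplicated segments, by GC content of their exons in percent, for 6 mice against 6 (black circles) and without Ts65Dn replicate 3 (grey squares); right, number of DEGs of the comparison of 6 against 6 that were lower (blue) or higher (orange) in Ts65Dn in the same bins. The median rises with each bin from -0.17 to 0.12, lower DEGs lie under 50% GC and all but 3 higher DEGs above it.

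Among the 28 higher DEGs whose groups did not overlap, the 4 largest changes were in H2-Q4, Adcy4, Slc52a3 and Stab1, and all 4 were also DEGs without the library labelled Ts65Dn replicate 3 (adjusted p = 0.0216, 0.0241, 0.0224 and 0.0103, edgeR). H2-Q4, an MHC class I gene at chr17:35379617-35385290 and thus outside the Mmu17 segment, had 1.92 to 2.68 CPM in wt (median 2.18) and 3.0 to 6.35 CPM in Ts65Dn (median 4.30). Ts65Dn replicates 1 and 2 were highest and replicates 4 and 5 lowest, and all 6 lay above the highest wt library (log2 fold change 1.02, SE 0.19, adjusted p = 0.0269, edgeR). Adcy4, an adenylyl cyclase, had 1.90 to 2.88 CPM in wt (median 2.10) and 2.98 to 4.27 CPM in Ts65Dn (median 3.50). Slc52a3, a riboflavin transporter, had 1.54 to 2.27 CPM in wt (median 1.87) and 2.59 to 3.11 CPM in Ts65Dn (median 2.99). The 2 genes rose about equally, with log2 fold changes of 0.65 (SE 0.13, adjusted p = 0.0299) and 0.64 (SE 0.12, adjusted p = 0.0218, both edgeR), and the 6 Slc52a3 values of Ts65Dn lay close together. Stab1, which codes for the scavenger receptor stabilin-1 of macrophages and sinusoidal endothelium, had 9.20 to 10.4 CPM in wt (median 10.2) and 11.6 to 18.9 CPM in Ts65Dn (median 14.9). Its wt libraries were tightly grouped, Ts65Dn replicate 4 was the lowest Ts65Dn library and replicate 2 the highest (log2 fold change 0.59, SE 0.10, adjusted p = 0.0158, edgeR), and it stayed a DEG whichever of the 12 mice was left out. Without the GC trend, H2-Q4 stayed a DEG (adjusted p = 0.0383) and the adjusted p of Adcy4, Slc52a3 and Stab1 was 0.0568, 0.0543 and 0.0538 (edgeR).

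Of the 8 further genes named by size, Sumo2, a small ubiquitin-like modifier, rose from 2.74 ± 0.240 CPM (mean ± SD, n = 6 mice, as below) to 3.94 ± 0.576 CPM. Sumo2 has processed copies elsewhere in the genome, its reads may be split with them, and of the 12 fits with 1 mouse left out it was a DEG in 1. Akr7a5, an aldo-keto reductase, had 11.9 ± 1.19 CPM in wt and 16.2 ± 1.43 CPM in Ts65Dn, and Sipa1, a GTPase-activating protein of Rap, had 11.4 ± 0.560 CPM in wt and 15.4 ± 1.73 CPM in Ts65Dn. Orai1, the pore subunit of store-operated calcium channels, had 4.71 ± 0.443 CPM in wt and 6.29 ± 0.417 CPM in Ts65Dn. Ltbp4, a matrix protein that binds latent TGF-β, had 37.2 ± 3.63 CPM in wt and 48.4 ± 4.23 CPM in Ts65Dn. Ptprf, the receptor phosphatase LAR of axons and synapses, had 56.1 ± 3.63 CPM in wt and 71.7 ± 7.85 CPM in Ts65Dn. Pnpla2, the lipase that starts triglyceride breakdown, had 13.5 ± 1.06 CPM in wt and 17.2 ± 1.44 CPM in Ts65Dn. Their log2 fold changes ran from 0.35 (Pnpla2) to 0.52 (Sumo2), all at an adjusted p of 0.0218 or more (edgeR). No Ts65Dn library of these genes lay within the wt range. This was required by the rule that named them, also of the library labelled Ts65Dn replicate 3. With the GC trend removed, Sumo2 stayed a DEG (adjusted p = 0.0391) and the other 6 did not: their adjusted p was 0.0543 (Akr7a5), 0.102 (Sipa1), 0.0866 (Orai1), 0.201 (Ltbp4), 0.156 (Ptprf) and 0.0729 (Pnpla2, all edgeR). Rplp2, the P2 protein of the ribosomal stalk, had the smallest p of the higher DEGs: wt libraries had 51.8 to 64.5 CPM and Ts65Dn libraries 76 to 78.8 CPM (log2 fold change 0.36, SE 0.047, adjusted p = 0.00316, edgeR). The Ts65Dn values of Rplp2 hardly spread, the library labelled Ts65Dn replicate 3 (78.3 CPM) lay among the others, and the call held whichever mouse was left out and with the GC trend removed (adjusted p = 0.0103).

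Among the 37 lower DEGs whose groups did not overlap, the 3 largest changes were in Ikzf5, Pnrc2 and Htr2a. Ikzf5, a zinc finger transcription factor at chr7:131388652-131410521, had 3.29 to 6.57 CPM in wt (median 4.52) and 2.11 to 2.70 CPM in Ts65Dn (median 2.42). Wt replicate 3 was highest at 6.57 CPM, and the Ts65Dn libraries lay within a narrow range below all of wt (log2 fold change -0.92, SE 0.16, adjusted p = 0.0218, edgeR). The annotation of Fgfr2 runs over the whole of Ikzf5 on the same strand, so their reads can be confused. Pnrc2, which couples nonsense-mediated decay to decapping, had 56 to 63.9 CPM in wt (median 60.1) and 36.1 to 52.1 CPM in Ts65Dn (median 41.1). The highest Ts65Dn value of Pnrc2, 52.1 CPM, came from the library labelled Ts65Dn replicate 3. Leaving it out took the log2 fold change from -0.53 (SE 0.078, adjusted p = 0.00819) to -0.60 (SE 0.057, adjusted p = 5.67e-05, both edgeR). Ikzf5 and Pnrc2 stayed DEGs with the GC trend removed (adjusted p = 0.031 and 0.0198). Htr2a, the serotonin 2A receptor, had 17.8 to 24.7 CPM in wt (median 21.4) and 15.2 to 17.3 CPM in Ts65Dn (median 15.9). All 6 Ts65Dn libraries lay below the lowest wt library (log2 fold change -0.41, SE 0.075, adjusted p = 0.0235, edgeR), and the adjusted p was 0.0745 with the GC trend removed.

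Rgs20, a regulator of G-protein signalling, had 26 ± 2.15 CPM in wt and 20.2 ± 1.83 CPM in Ts65Dn and stayed a DEG with the GC trend removed (log2 fold change -0.36 as fitted, -0.36 without the trend, adjusted p = 0.0383). The V-ATPase subunit gene Atp6v1h overlaps it by 268 bases on the other strand and had 165 ± 9.68 CPM in wt and 189 ± 9.93 CPM in Ts65Dn (adjusted p = 0.0808, edgeR). Rsbn1l had 41.3 ± 2.05 CPM in wt and 31.7 ± 4.41 CPM in Ts65Dn and also kept its call without the trend (adjusted p = 0.0274). St8sia4, which adds polysialic acid to the neural cell adhesion molecule, had 26.7 ± 1.82 CPM in wt and 21.3 ± 1.82 CPM in Ts65Dn. Eya1, a transcription coactivator with phosphatase activity, had 21.4 ± 1.48 CPM in wt and 17 ± 1.72 CPM in Ts65Dn. Fundc1, a mitophagy receptor of the outer mitochondrial membrane, had 57.9 ± 5.27 CPM in wt and 45.4 ± 4.05 CPM in Ts65Dn. The zinc finger genes Zfp948 and Zfp942, at chr17:21567008-21588699 and chr17:21926960-21962464 beyond the end of the Mmu17 segment, were lower as well. Zfp948 had 12.5 ± 1.21 CPM in wt and 9.39 ± 0.823 CPM in Ts65Dn, and Zfp942 had 31.9 ± 1.36 CPM in wt and 25.3 ± 0.998 CPM in Ts65Dn. Pdik1l, a protein kinase gene, and Lcorl, a corepressor-like gene, had log2 fold changes of -0.35 and -0.35 (adjusted p = 0.0149 and 0.0434, edgeR). The 9 genes other than Atp6v1h had log2 fold changes of -0.41 (Zfp948) to -0.33 (St8sia4) with adjusted p-values of 0.00562 to 0.046 (edgeR), and Zfp942 and Pdik1l stayed DEGs whichever mouse was left out. Both lost their call with the GC trend removed, where the log2 fold change of Zfp942 was -0.18 (adjusted p = 0.0576) and that of Pdik1l -0.29 (adjusted p = 0.0628, edgeR). So did Eya1 and Fundc1 (adjusted p = 0.0524 and 0.0917), and the adjusted p of St8sia4 was 0.427, of Lcorl 0.246 and of Zfp948 0.157, the 3 highest of the 12 lower genes named by size. Of the 24 genes named by size in either direction, Sumo2 and Eya1 were not called without the library labelled Ts65Dn replicate 3 (adjusted p = 0.064 and 0.0566). Stab1, Rplp2, Pnrc2, Pdik1l and Zfp942 were called whichever of the 12 mice was left out, and the other genes lost their call for at least 3 of the mice.

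**Figure D2:**
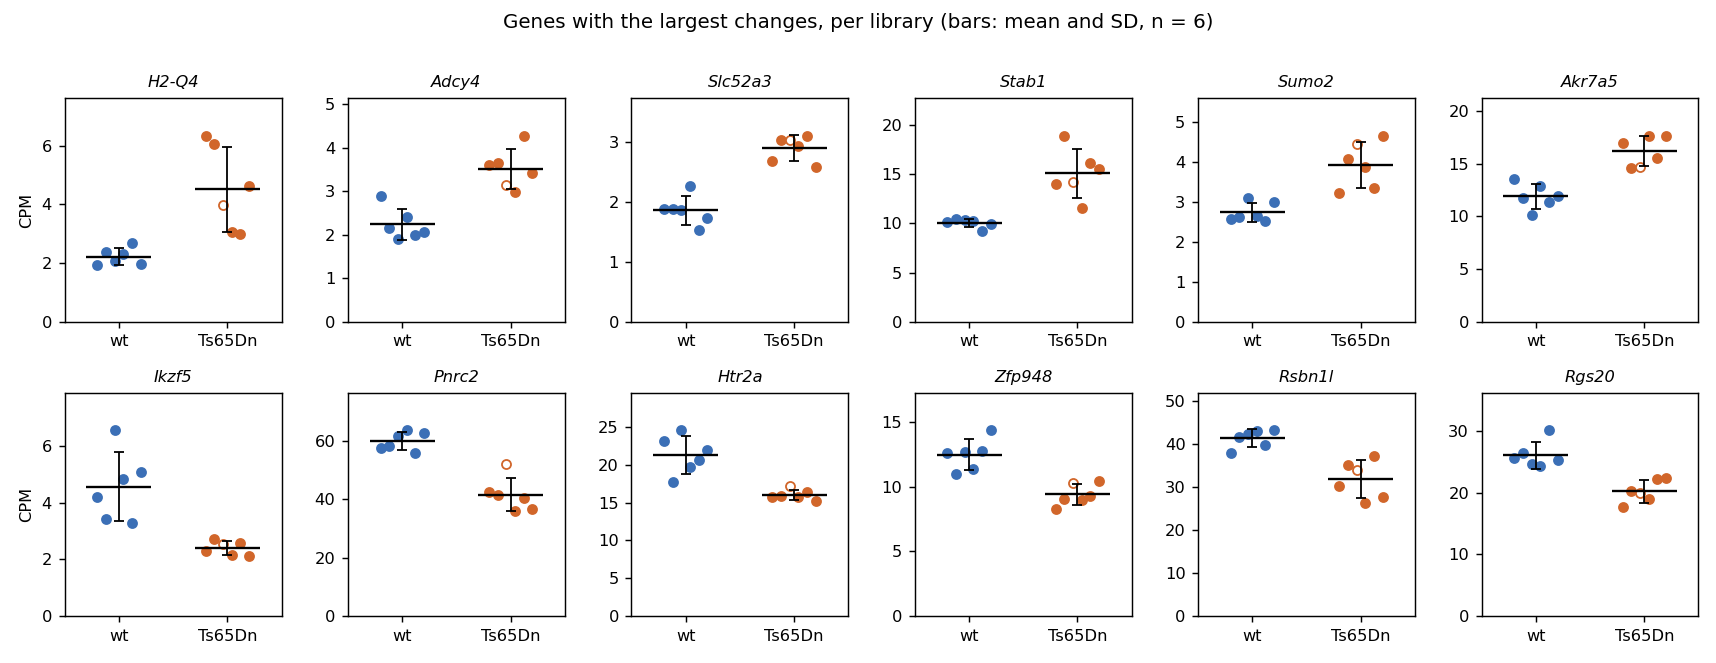
CPM of 12 genes in the HIP libraries of wt (blue) and Ts65Dn (orange), 1 point a library, with the mean and SD of 6 libraries as black bars; the open circle is the library labelled Ts65Dn replicate 3. The upper row holds the 6 largest increases and the lower row the 6 largest decreases among DEGs whose groups did not overlap, and H2-Q4 in Ts65Dn spreads from 3.0 to 6.35 CPM and wt stays at 1.92 to 2.68 CPM.

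Leaving out the library labelled Ts65Dn replicate 3 gave further genes with clear groups in which it stood near the wt libraries. Selenov, a selenoprotein, had 0.139 to 0.220 CPM in wt (median 0.179), 0.251 CPM in that library and 0.476 to 0.861 CPM in the other 5 Ts65Dn libraries (median 0.759). The other 5 libraries were clear of wt (log2 fold change 1.92, SE 0.24, adjusted p = 6.54e-04, edgeR), and with all 6 the gene did not pass the filter on low counts. Single wt libraries held 4 to 9 counts of Selenov, so it passed the filter only through the 5 Ts65Dn libraries in which it was high. The filter thus chose it by the difference tested, and its p-value is no support for that difference. Vsig2, an immunoglobulin-domain membrane protein, had 8.13 to 10.7 CPM in wt (median 9.39), 7.98 CPM in that library, below all of wt, and 13.8 to 18.3 CPM in the other 5 Ts65Dn libraries (median 16.9). Its adjusted p went from 0.0786 with all libraries to 6.25e-04 without that one, where the log2 fold change was 0.78 (edgeR). Exoc3l4, an exocyst-related gene, and Lrrc26, an auxiliary subunit of BK potassium channels, likewise had 1.04 and 0.573 CPM in that library, against 1.67 to 3.55 and 1.54 to 2.36 CPM in the other 5. Their log2 fold changes without it were 0.93 (adjusted p = 0.0321) and 0.78 (adjusted p = 0.0353, edgeR). With all libraries their adjusted p was 0.152 and 0.301, and without that library but with the GC trend removed it was 0.0538 and 0.0885.

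The lower genes showed the same split. Rfx5, a transcription factor of MHC class II promoters, had 12.1 to 14.2 CPM in wt (median 12.8), 14.4 CPM in the library labelled Ts65Dn replicate 3 and 7.27 to 9.44 CPM in the other 5 Ts65Dn libraries (median 8.60). That library was above all of wt and the other 5 below. The log2 fold change without it was -0.62 (SE 0.084, adjusted p = 0.00169, edgeR), a call kept whichever of the 11 remaining mice was left out and with the GC trend removed (adjusted p = 0.0011). Mme, the protease neprilysin, had 10.5 to 16.5 CPM in wt (median 14.4), 16.6 CPM in that library and 8.87 to 10.3 CPM in the other 5 Ts65Dn libraries (median 9.58). These 5 were below all of wt, with a log2 fold change of -0.56 (adjusted p = 0.0214, and 0.133 with the GC trend removed, edgeR). Dach1, a transcription factor, had 7.20 to 15.8 CPM in wt (median 9.24), 7.52 CPM in that library and 3.65 to 6.75 CPM in the other 5 Ts65Dn libraries (median 5.0). In Dach1 that library lay among the wt values and the gene's groups were apart without it (log2 fold change -1.01, adjusted p = 0.0241, edgeR). It was also a DEG with all libraries, where the groups overlapped (log2 fold change -0.90, adjusted p = 0.049, or 0.0602 with the GC trend removed). Another 3 genes, of low level, Slc5a11, a sodium and myo-inositol cotransporter, Tbx1, a T-box transcription factor at chr16:18580979-18590671 on the disomic part of Mmu16, and Dcdc2b, a doublecortin-domain gene, were lower too. They had log2 fold changes of -1.64, -1.49 and -0.91 with adjusted p-values of 0.0214, 0.0235 and 0.0414 (edgeR). Their wt means were 0.752, 0.543 and 1.35 CPM, and that library had 1.40, 0.680 and 1.40 CPM. In the other 5 Ts65Dn libraries Slc5a11 had 0.179 to 0.356 CPM and Tbx1 0.0891 to 0.272 CPM. These 2 genes passed the filter on low counts only through wt, where they were high, so their p-values are no support either. Of the 12 genes named from this comparison, Usp18 and Isg15 included, that library lay within the wt range or beyond its far side in 10, and for Selenov and Usp18 it lay between the wt range and the other 5 libraries. This follows in part from a choice that needed those 5 to be clear of wt.

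**Figure D3:**
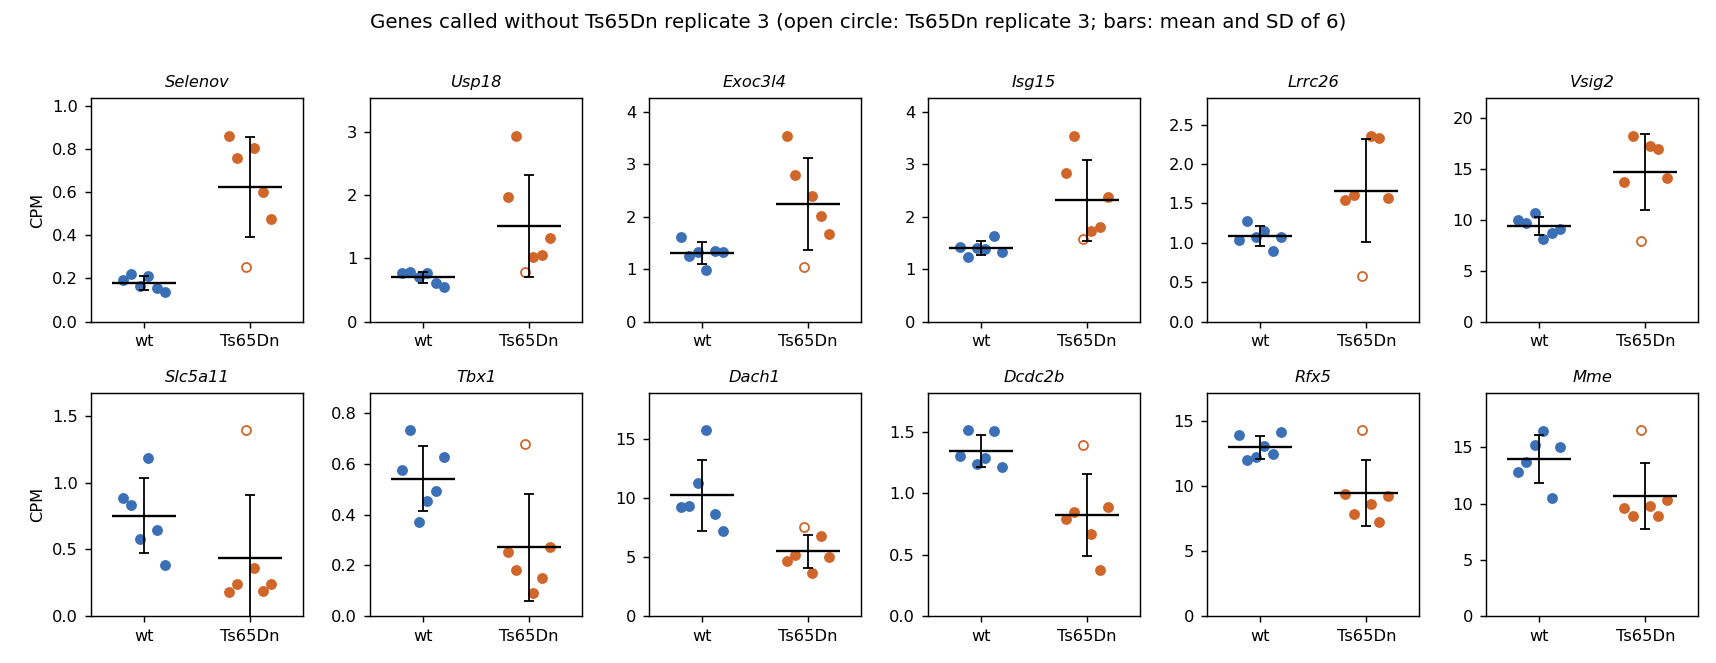
CPM of the 12 genes named from the comparison of 5 Ts65Dn libraries with 6 wt libraries, 1 point a library in wt (blue) and Ts65Dn (orange), with mean and SD of 6 libraries as black bars. The open circle, the library labelled Ts65Dn replicate 3, lies within the wt range or beyond it in 10 of the 12, as for Rfx5 at 14.4 CPM, where the other Ts65Dn libraries have 7.27 to 9.44 CPM.

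Interferon-stimulated genes had positive log2 fold changes almost throughout, with few single calls. Of the 40 genes listed, 36 were tested, 34 had a positive log2 fold change, and the median was 0.40, against 0.009 over all genes tested. At an unadjusted p under 0.05, 18 were higher and 0 lower, where 7.24% of all genes were higher and 7.44% lower. With all libraries, 0 were DEGs by edgeR and 5 by DESeq2, which called 2.96% of all genes in both directions together. Without the library labelled Ts65Dn replicate 3, Usp18, Isg15 and Sp100 were DEGs, the median was 0.41, and 17 genes were higher and 0 lower at an unadjusted p under 0.05 (all genes: 8.8% and 8.25%). Of all genes tested in that comparison, 0.672% were higher DEGs. Usp18, the protease that removes ISG15 from proteins and dampens interferon receptor signalling, had 0.556 to 0.784 CPM in wt. In Ts65Dn replicates 1 to 6 it had 1.97, 2.95, 0.788, 1.02, 1.05 and 1.33 CPM. Replicates 1 and 2 were far above the rest (log2 fold change 1.26, SE 0.28, adjusted p = 0.0374, edgeR, without replicate 3). Isg15, the ubiquitin-like modifier itself, had 1.22 to 1.63 CPM in wt and 2.83, 3.55, 1.58, 1.74, 1.80 and 2.38 CPM in Ts65Dn replicates 1 to 6 (log2 fold change 0.82, SE 0.19, adjusted p = 0.0472, edgeR, without replicate 3). Sp100, a nuclear body protein, had 2.12 to 2.97 CPM in wt and 4.52, 4.65, 2.61, 2.98, 3.64 and 3.30 CPM in Ts65Dn (log2 fold change 0.62, SE 0.14, adjusted p = 0.0486, edgeR, without replicate 3). With the GC trend removed, Sp100 stayed a DEG (adjusted p = 0.0409) and Usp18 and Isg15 did not (0.0545 and 0.0709). In these 3 genes Ts65Dn replicates 1 and 2 were again the highest of all 12 libraries.

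Many of these genes carry the interferon-stimulated response element next to their start, and the promoters of 5 of them are shown because they differ in the number and strand of their matches. The letters searched were GAAANNGAAA and, for the other strand, TTTCNNTTTC, in RefSeq promoters of GRCm38.p6 that run from 250 bases before to 50 bases after the start, and matches may overlap. Of the 36 genes tested, 29 had a promoter in the table and 19 of these (65.5%) held a match, as did 407 of 11282 protein-coding genes tested (3.61%) and 3.99% of all 27025 genes in the table. The stretches below run 5′ to 3′ on the strand of the gene, with the matched letters in capitals and 20 bases on each side.
Isg15: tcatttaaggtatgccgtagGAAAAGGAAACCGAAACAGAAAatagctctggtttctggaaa
Bst2: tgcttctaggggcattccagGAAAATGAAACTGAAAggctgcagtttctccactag
Igtp: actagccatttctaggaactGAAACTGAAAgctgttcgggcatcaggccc
Irgm1: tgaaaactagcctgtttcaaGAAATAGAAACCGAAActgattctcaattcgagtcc
Ifit1: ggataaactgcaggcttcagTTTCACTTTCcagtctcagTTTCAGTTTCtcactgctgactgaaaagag

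They come from chr4:156200769-156201068 (Isg15, minus strand), chr8:71537423-71537722 (Bst2, minus strand), chr11:58199306-58199605 (Igtp, plus strand), chr11:48871371-48871670 (Irgm1, minus strand) and chr19:34640639-34640938 (Ifit1, plus strand). In Isg15, 3 overlapping matches begin 78, 72 and 66 bases before the start, and in Bst2, which tethers budding virus, 2 overlapping matches begin 130 and 124 bases before it. Igtp and Irgm1, interferon-induced GTPases, have matches that begin 34 bases, and 30 and 24 bases, before the start, and Ifit1, an antiviral RNA-binding protein, has 2 separate matches on the other strand. The log2 fold changes with all libraries were 0.87 for Bst2, 0.73 for Igtp, 0.32 for Irgm1 and 0.51 for Ifit1. Their unadjusted p-values were 0.0331, 0.00811, 0.00498 and 0.0764 (edgeR), and none passed after adjustment (these 4 were chosen after their values were seen; adjusted p of 0.135 or more). Sp100 and Irf7, a transcription factor of the same list (log2 fold change 0.87), held no match to these letters in their promoters.

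The level of the list differed between the Ts65Dn mice. Its mean log2 level, relative to the wt mean, was 0.58 and 0.82 in Ts65Dn replicates 1 and 2, 0.32 in replicate 6, 0.12 in the library labelled replicate 3, and 0.063 and -0.069 in replicates 5 and 4, where wt ran from -0.16 to 0.094. Replicates 4 and 5 thus lay within the wt range. Genes of meningeal fibroblasts, cells that line the brain surface, were high in partly the same libraries. Their level was 1.0, 1.02 and 0.72 in Ts65Dn replicates 1 to 3 and -0.45 to 0.059 in replicates 4 to 6, and -0.55 to 0.42 in wt. At an unadjusted p under 0.05, 7.24% of all genes tested were higher and 7.44% lower, and DESeq2 called 2.96%. All 22 meningeal genes tested had a positive log2 fold change (median 0.51), 8 were higher and 0 lower at that p, 0 were DEGs by edgeR and 2 by DESeq2. Their summed level was 118 to 295 CPM in wt and 127 to 467 CPM in Ts65Dn. The collagen gene Col1a1, a defining marker, had 4.03 to 6.04 CPM in wt and 4.10 to 18.9 CPM in Ts65Dn. Left without Ts65Dn replicates 1 and 2, a choice made after seeing the data, the median of the interferon-stimulated genes was 0.14, with 5 higher and 0 lower of 37 at an unadjusted p under 0.05 (all genes: 6.13% and 6.4%), and that of the meningeal genes was 0.13. These were the 2 highest libraries of both lists, so the joint fall follows from the choice and does not link the lists. The library labelled Ts65Dn replicate 3 was kept in that fit. Without Ts65Dn replicates 1 to 3 the medians were 0.14 and -0.14, with 5 higher and 1 lower interferon-stimulated genes and 0 meningeal genes at an unadjusted p under 0.05 (all genes: 8.88% higher and 8.29% lower). The part of the meningeal cells in the interferon-stimulated genes was not tested. In bulk tissue, more cells of a type and more RNA per cell cannot be told apart.

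MHC class I and antigen presentation genes lay above the wt range in the same Ts65Dn libraries as the interferon-stimulated genes, replicates 1, 2, 3 and 6. Of 18 MHC class I and antigen presentation genes tested, 17 had a positive log2 fold change (median 0.36), and H2-Q4 was the 1 DEG. At an unadjusted p under 0.05, 9 of the 18 were higher and 0 lower, against 7.24% and 7.44% of all genes tested. The list stood at 0.49, 0.44, 0.42 and 0.47 in Ts65Dn replicates 1, 2, 3 and 6 and at 0.10 and -0.001 in replicates 4 and 5, with wt at -0.21 to 0.11. Named after their values were seen, the heavy chain gene H2-K1, the light chain gene B2m and the peptide transporter gene Tap1 had log2 fold changes of 0.82, 0.40 and 0.43 (unadjusted p = 0.00584, 0.0339 and 0.0142, adjusted p of 0.144, 0.295 and 0.205, edgeR). H2 genes are similar to each other, so reads can be split or dropped between them. The 8 MHC class II genes tested had a median of 0.48, led by Cd74 (1.14), with 0 DEGs by edgeR or DESeq2 with all libraries (0 and 1 without the library labelled Ts65Dn replicate 3) and 1 gene higher at an unadjusted p under 0.05. This median became 0.32 once that library was left out, 0.50 without Ts65Dn replicates 1 and 2, and -0.19 without Ts65Dn replicates 1 to 3. The class II level was 0.86 in the library labelled Ts65Dn replicate 3, 0.76, 0.73 and -0.023 in replicates 1, 2 and 6, -0.23 and 0.12 in replicates 4 and 5, and -0.47 to 0.40 in wt. Complement genes had a median of 0.18, with 0 DEGs by both tools and 1 of 18 higher at an unadjusted p under 0.05 (5.56%, under the share of all genes). Chemokines, cytokines and their receptors had a median of 0.085, with 0 DEGs by edgeR, 1 by DESeq2, and 4 higher and 2 lower of 26 at an unadjusted p under 0.05.

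**Figure D4:**
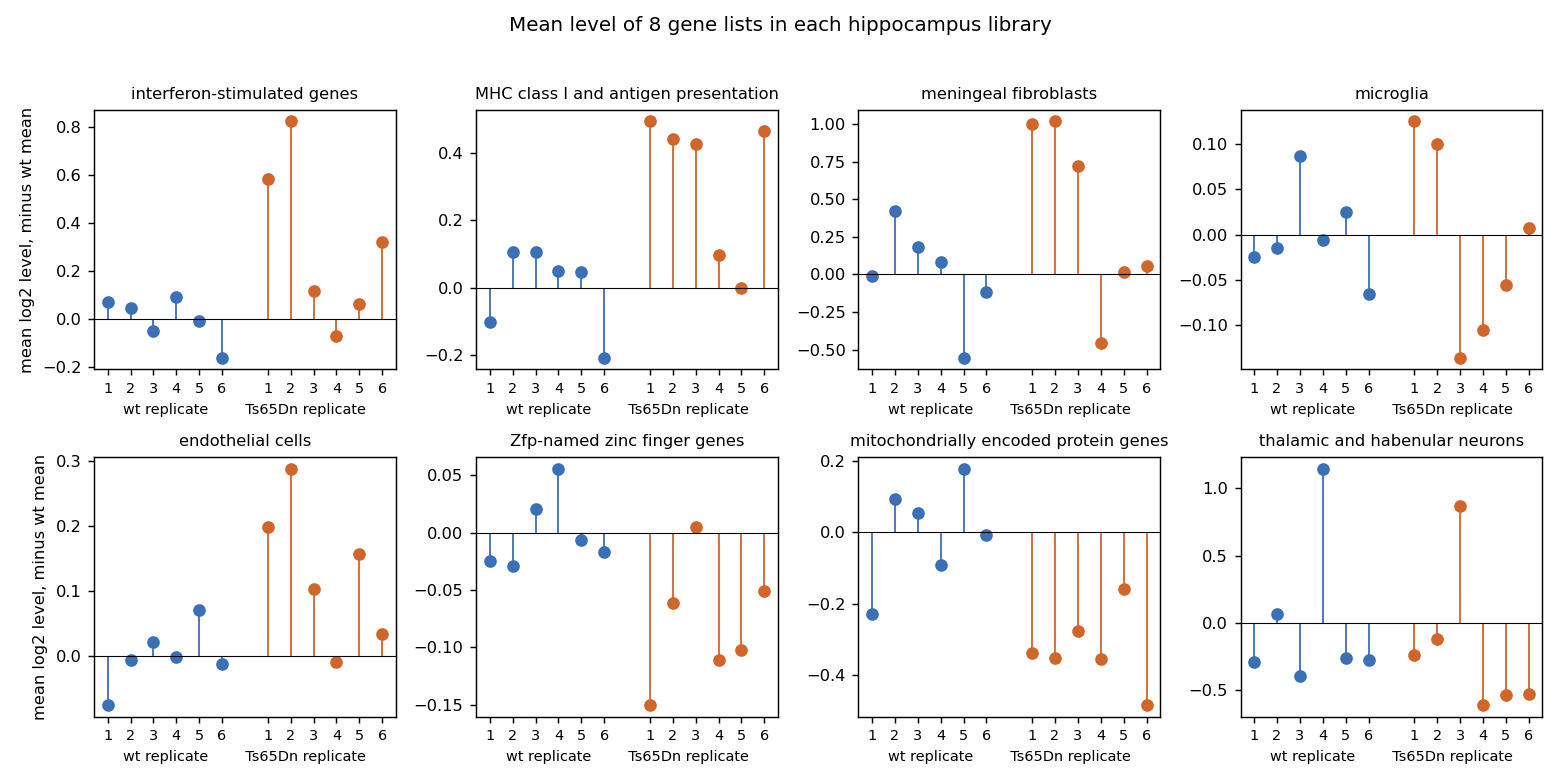
Mean log2 level (pseudocount of 0.5 CPM) of 8 gene lists in each HIP library, minus the mean of the 6 wt libraries, for wt (blue) and Ts65Dn (orange) by replicate number; the vertical scale differs between panels. Interferon-stimulated genes stand at 0.58 and 0.82 in Ts65Dn replicates 1 and 2, the libraries in which meningeal fibroblast genes are also highest, and mitochondrially encoded genes are below 0 in all 6 Ts65Dn libraries.

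Of the glial and vessel lists, microglial and endothelial genes each held 1 DEG. Microglial genes had a median of -0.014 over 25 genes, and the levels of the list overlapped between genotypes. P2ry12, the purinergic receptor of resting microglia, had 52.5 to 62.2 CPM in wt (median 58.3) and 43 to 52.8 CPM in Ts65Dn (median 48.2). The groups overlapped by 1 library and the gene was lower (log2 fold change -0.27, SE 0.057, adjusted p = 0.0422, edgeR). Cx3cr1, the fractalkine receptor, had 56.4 to 67.9 and 63.7 to 68.6 CPM (adjusted p = 0.67). P2ry12 lies within Med12l on the other strand, and its adjusted p was 0.402 with the GC trend removed. Endothelial genes had a median of 0.10, and Eng was the 1 DEG. At an unadjusted p under 0.05, 7 of 22 were higher (31.8%) and 1 lower (4.55%), against 7.24% and 7.44% of all genes tested. The endothelial level was 0.20, 0.29, 0.10 and 0.16 in Ts65Dn replicates 1, 2, 3 and 5, above wt (-0.075 to 0.071), and -0.009 and 0.034 in replicates 4 and 6. Without Ts65Dn replicates 1 and 2, the 2 highest libraries of this list, the endothelial median was 0.035. Eng, endoglin, a co-receptor for ligands of the TGF-β family, had 20.4 to 25 CPM in wt (median 21.6), 23.8 CPM in the library labelled Ts65Dn replicate 3 and 31.6 to 34.5 CPM in the other 5 Ts65Dn libraries (median 32.3). The 5 libraries were clear of wt and that one lay within the wt range (log2 fold change 0.49, SE 0.084, adjusted p = 0.0167 with all, log2 fold change 0.56, SE 0.057, adjusted p = 1.31e-04 without it, edgeR). Eng stayed a DEG whichever mouse was left out. Myelin, astrocyte, oligodendrocyte precursor and mural cell genes had medians of 0.052, -0.034, -0.012 and 0.13, with 0 DEGs by edgeR, 1, 1, 0 and 0 by DESeq2, and 2, 2, 2 and 3 genes at an unadjusted p under 0.05. The 3 mural genes were higher, of 14 tested.

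Most genes of dentate granule cells had negative log2 fold changes. Of 21 tested, 18 had a negative log2 fold change (median -0.14), 7 were lower and 1 higher at an unadjusted p under 0.05, 0 were DEGs by edgeR and 5 were lower by DESeq2. At an unadjusted p, 7.24% of all genes tested were higher and 7.44% lower, and DESeq2 called 2.96% in both directions together. The 4 with the smallest p, named after their values were seen, began with Cdh9, a cadherin, with a log2 fold change of -0.28 (adjusted p = 0.0531), and Lrrtm4, a synaptic adhesion protein, with -0.33 (0.0546). They were followed by Tdo2, a tryptophan dioxygenase, with -0.41 (0.0727), and Calb1, the calcium buffer calbindin, with -0.29 (0.0767, adjusted p by edgeR). The granule cell marker Prox1 had a log2 fold change of -0.19 and C1ql2 one of 0.41, neither past the test (adjusted p = 0.462 and 0.346). With the GC trend removed the median of the list was -0.13. The mean log2 level of the list ran from -0.13 to 0.13 in wt. It was 0.16 in Ts65Dn replicate 2, above all of wt, and -0.10 in replicate 5, within the wt range. The other Ts65Dn libraries, at -0.26 to -0.17, lay below wt. CA1, CA2 and CA3, and GABAergic interneuron genes had medians of 0.005, 0.032 and -0.008, with 0 DEGs by both tools and 1, 0 and 1 genes at an unadjusted p under 0.05. Genes of thalamic and habenular neurons differed between single libraries, at 1.15 in wt replicate 4 and 0.87 in the library labelled Ts65Dn replicate 3 and -0.61 to 0.064 in the other 10. Among striatal genes, Pdyn, the dynorphin precursor gene, which granule cells also use, was lower without that library, with 19.2 ± 2.75 CPM in wt against 13.5 ± 1.10 CPM (SD, n = 5 mice). Its log2 fold change was -0.51 (adjusted p = 0.0218), and that of Adcy5, an adenylyl cyclase gene, was 0.23 (adjusted p = 0.0214, edgeR). Adcy5 lost its call with the GC trend removed (adjusted p = 0.232).

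Transmitter receptors, synaptic release and activity genes showed almost no single change. Ionotropic glutamate receptors (28 tested), metabotropic glutamate receptors (11), GABA receptors and synthesis enzymes (34), and synaptic vesicle release and SNARE genes (64) had medians of -0.018, -0.006, -0.036 and 0.028 and 0 DEGs by edgeR in both comparisons. At an unadjusted p under 0.05, 3 of the ionotropic receptor genes were higher and 3 lower, 1 of the metabotropic ones was lower, 1 of the GABA genes was higher and 5 lower, and 5 of the release genes were higher and 2 lower. Of all genes tested, 7.24% were higher and 7.44% lower at that p. DESeq2 called 1, 0, 3 and 0 genes of these 4 lists with all libraries. Immediate early genes, which report recent activity, had a median of 0.078 and 0 DEGs by both tools, with 1 of 31 higher at an unadjusted p under 0.05. Among potassium channel genes, Kcnip4, a calcium-binding partner of Kv4 channels, was the 1 DEG. It had 69.3 to 79.2 CPM in wt (median 74.4) and 58 to 67.7 CPM in Ts65Dn (median 65.1), without overlap. It was lower (log2 fold change -0.22, SE 0.046, adjusted p = 0.0377, edgeR, and adjusted p = 0.327 with the GC trend removed). Rhoa, the GTPase that drives actomyosin contraction, had 60.6 to 66.5 CPM in wt (median 64.9) and 70.3 to 79.8 CPM in Ts65Dn (median 73.6). The 6 Ts65Dn libraries lay above all of wt (log2 fold change 0.21, SE 0.040, adjusted p = 0.0277, edgeR), also with the GC trend removed (adjusted p = 0.018), and its exons had 43.1% GC. Arhgap5, a GTPase-activating protein of RhoA, had 235 to 276 CPM in wt (median 252) and 182 to 230.4 CPM in Ts65Dn (median 199.9). All of Ts65Dn lay below wt (log2 fold change -0.31, SE 0.068, adjusted p = 0.0498, edgeR), and the adjusted p was 0.279 with the GC trend removed. Clustered protocadherins, adhesion proteins of neuronal identity, had a median of -0.079 over 53 genes with 8 lower and 1 higher at an unadjusted p under 0.05. Axon guidance genes had one of 0.066 over 68 with 9 higher and 2 lower. Both had 0 DEGs by edgeR and 1 by DESeq2. The lower protocadherins were 15.1% and the higher axon guidance genes 13.2% of their lists, against 7.44% and 7.24% of all genes tested.

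Ribosomal protein genes held DEGs in both directions. Of 82 cytosolic ribosomal protein genes tested, 3 were higher (Rplp2, Rpl11 and Rps21) and 2 lower (Rps4x and Rpl23), the median was -0.011, and 11 were higher and 13 lower at an unadjusted p under 0.05. Of all genes tested, 0.236% were higher and 0.354% lower DEGs, and 7.24% and 7.44% at an unadjusted p. Rpl11, which binds MDM2 under ribosomal stress, had 58.1 to 68.9 CPM in wt (median 62.7) and 71 to 76.5 CPM in Ts65Dn (median 75.2). It was higher (log2 fold change 0.25, SE 0.042, adjusted p = 0.0167, edgeR). Rps4x, on the X chromosome, had 84.8 to 95.6 CPM in wt (median 92.2) and 77 to 83.1 CPM in Ts65Dn (median 78.6), and Rpl23 had 60.0 ± 3.59 CPM in wt and 50.1 ± 3.34 CPM in Ts65Dn. The groups did not overlap for Rplp2, Rpl11 and Rps4x, and the calls of Rplp2, Rpl11, Rps4x and Rpl23 stayed with the GC trend removed (adjusted p = 0.0103, 0.0347, 0.0255 and 0.0455, edgeR). Ribosomal protein genes have many processed pseudogenes, so reads may be split or dropped between copies. Among 76 mitochondrial ribosomal protein genes, Mrpl33 was lower, with 16.8 ± 0.602 CPM in wt and 13.7 ± 0.834 CPM in Ts65Dn (log2 fold change -0.30, SE 0.056, adjusted p = 0.0269, edgeR), and the median was 0.009. Translation initiation and elongation factors had a median of 0.017 over 65 genes, with 0 DEGs by edgeR, 1 by DESeq2, and 2 higher and 11 lower at an unadjusted p under 0.05.

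Lower values prevailed among genes of RNA processing and transcription control, at an unadjusted p. Of 104 splicing factor genes, 17 were lower and 5 higher at an unadjusted p under 0.05, where 7.24% of all genes tested were higher and 7.44% lower. Their median was -0.048, their median GC content 45.7%, and the median -0.014 with the GC trend removed. Prpf40b, a U1-associated factor, was higher (36.7 ± 1.81 CPM in wt and 44 ± 2.88 CPM in Ts65Dn, adjusted p = 0.0311, edgeR). Its adjusted p was 0.1 with the GC trend removed. Without the library labelled Ts65Dn replicate 3, the RNA-binding protein gene Nova1, which controls neuronal exons, and Srsf7, an SR protein gene, were lower (log2 fold change -0.41 and -0.21, adjusted p = 0.0224 and 0.0369, edgeR). Nova1 and Srsf7 lost their calls with the GC trend removed (adjusted p = 0.216 and 0.137). Of 355 genes with a Zfp name, which code for zinc finger proteins and are in large part repressors of transposable elements and genes, 5 were lower with all libraries and 11 without that library. By comparison, 0 were higher by edgeR in either, and DESeq2 called 23 lower and 1 higher with all libraries and 29 lower and 1 higher without that one. Of all genes tested, 0.354% with all libraries and 0.651% without that one were lower DEGs by edgeR. DESeq2 called 2.96% and 4.83% of all genes, in both directions together. At an unadjusted p under 0.05, 91 were lower (25.6%) and 9 higher (2.54%) with all libraries, against 7.44% and 7.24% of all genes tested, and the median was -0.10. The median GC content of these genes was 44.3%, the median log2 fold change with the GC trend removed was -0.049, and 0 were then DEGs. Zfp938 and Zfp62 fell from 29.2 ± 1.44 to 23.6 ± 1.71 CPM and from 45.6 ± 2.28 to 38.4 ± 1.92 CPM, with adjusted p-values of 0.0246 and 0.0298 (edgeR). With the GC trend removed their adjusted p was 0.527 and 0.275. In the library labelled Ts65Dn replicate 3 the list stood at 0.005, within the wt range of -0.029 to 0.056, and in the other 5 between -0.15 and -0.051.

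Transcripts of the mitochondrial genome had negative log2 fold changes, and 1 passed the test. All 13 protein-coding genes had a negative log2 fold change (median -0.28). At an unadjusted p under 0.05, 9 were lower (69.2%) and 0 higher, against 7.44% and 7.24% of all genes tested. The 1 DEG was mt-Atp6, a subunit of the ATP synthase. It had 7.54 to 12.6 CPM in wt (median 11.1) and 5.96 to 8.06 CPM in Ts65Dn (median 7.37). It was lower (log2 fold change -0.57, SE 0.12, adjusted p = 0.0464, edgeR), and Ts65Dn replicates 3, 5 and 6 lay just above the lowest wt library, wt replicate 1 at 7.54 CPM. The mean level of the list was below 0 in all 6 Ts65Dn libraries, at -0.48 to -0.16, but wt replicate 1 at -0.23 lay within that range. The 13 genes had a median GC content of 37.1%, and with the GC trend removed the median was -0.11 and the adjusted p of mt-Atp6 0.277. Copies of these genes in the nuclear genome can take or remove their reads. Nuclear-encoded genes of the respiratory chain and ATP synthase had a median of 0.009 over 84 genes, with 6 higher (7.14%) and 11 lower (13.1%) at an unadjusted p under 0.05. They held 2 DEGs, both lower. Uqcrb, of complex III, had 32.4 ± 1.38 CPM in wt and 27.4 ± 1.61 CPM in Ts65Dn. Usmg5, of the ATP synthase, had 40.8 ± 2.82 CPM in wt and 33.8 ± 2.43 CPM in Ts65Dn. Neither kept its call with the GC trend removed (adjusted p = 0.488 and 0.292, edgeR).

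Lysosomal and V-ATPase genes held DEGs only in the comparison without the library labelled Ts65Dn replicate 3. Then 4 of 51 were DEGs, all higher, against 0 with all libraries (2 higher and 1 lower by DESeq2, and 7 higher and 1 lower at an unadjusted p under 0.05). In that comparison 10 were higher and 1 lower at an unadjusted p under 0.05, and the median was 0.066. Of all genes in that comparison, 0.672% were higher DEGs, and 8.8% were higher and 8.25% lower at an unadjusted p. With all libraries 7.24% were higher and 7.44% lower at an unadjusted p. Atp6v1h, Atp6v1c1 and Atp6v0a1, subunits of the proton pump that acidifies lysosomes and synaptic vesicles, had log2 fold changes of 0.22, 0.15 and 0.25 (adjusted p = 0.0242, 0.0396 and 0.0377), and Ctsa, cathepsin A, of 0.20 (adjusted p = 0.0304, all edgeR). Atp6v1c1 had 298 to 309 CPM in wt, 274 CPM in that library and 323 to 351 CPM in the other 5. That library lay below all of wt and the others above it. Atp6v1h and Atp6v1c1 kept their calls with the GC trend removed (adjusted p = 0.00172 and 0.0197), and Atp6v0a1 and Ctsa did not (0.0686 and 0.0736). Dnajb9, an ER chaperone of the unfolded protein response, had 41.9 to 49.4 CPM in wt (median 48.2) and 36.1 to 43.8 CPM in Ts65Dn (median 38.2). It was lower, with 1 Ts65Dn library within the wt range (log2 fold change -0.28, SE 0.058, adjusted p = 0.0367, edgeR). Hsf1, the heat shock transcription factor, was higher without that library (log2 fold change 0.29, adjusted p = 0.0342). Gclm, a subunit of the enzyme that limits glutathione synthesis, was lower without it (log2 fold change -0.24, adjusted p = 0.0486). None of these 3 kept its call with the GC trend removed, with adjusted p-values of 0.14 (all libraries), 0.0555 and 0.084 (edgeR). Glycolysis genes had a median of 0.090 over 27 genes, with 6 higher and 2 lower at an unadjusted p under 0.05 and 12 higher and 3 lower without that library, 0 DEGs by edgeR in either and 1 and 4 by DESeq2.

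Over all 53 lists, 40 had a median within 0.1 of 0 on the log2 scale, 12 held a DEG with all libraries and 17 with either set of libraries. The other 36 lists had 0 DEGs by edgeR, 0 to 13 genes at an unadjusted p under 0.05, and, in 16 of them, up to 5 calls by DESeq2. Of all genes tested, DESeq2 called 2.96% with all libraries and 4.83% without the library labelled Ts65Dn replicate 3.

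**Figure D5:**
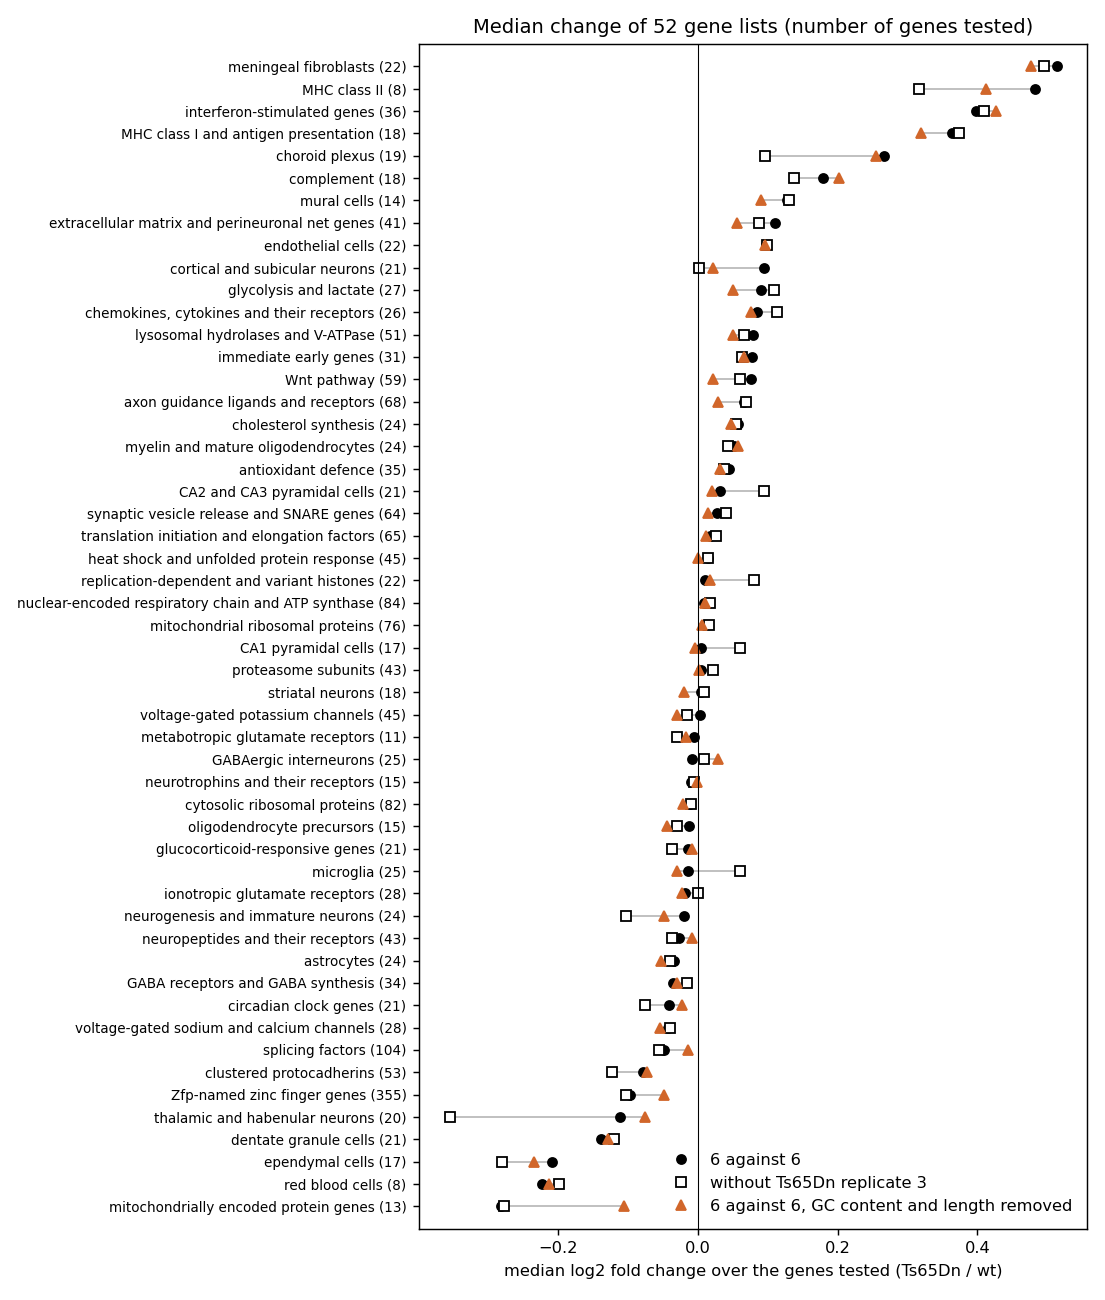
Median log2 fold change (Ts65Dn over wt) of the genes tested in each of 52 gene lists, with the number tested in parentheses, for 6 mice against 6 (black circles), without Ts65Dn replicate 3 (open squares) and for 6 against 6 with the trend on GC content and length removed (orange triangles); the grey line joins the lowest and highest. Lists of meningeal fibroblasts, MHC class II, interferon-stimulated and MHC class I genes stand at 0.36 to 0.51, and mitochondrially encoded genes move from -0.28 to -0.11 with the trend removed.

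Whether the change in the HIP differed from that in the entorhinal cortex (EC) of the same mice was asked with an interaction of genotype and region, fitted with each mouse as a block. Of 14699 genes tested, 0 passed by edgeR or by limma, and 622 by edgeR (4.23%) and 623 by limma had an unadjusted p under 0.05. In simulated counts the edgeR fit found 59 of 200 genes changed 1.5-fold in the Ts65Dn HIP alone (29.5%). A count of 0 therefore cannot show that the regions changed alike. Htr2a and Dach1, lower in the HIP, had EC log2 fold changes of -0.089 and 0.17, and H2-Q4, higher in the HIP, had one of 0.52 (adjusted p = 0.654, 0.582 and 0.239, edgeR). Their differences between regions did not pass (adjusted p of the interaction 1.0 each, genes chosen after their values were seen). Of the 85 DEGs of the HIP, 20 were also DEGs of the EC of the same mice, where 2.23% of the genes tested were called. That EC fit held the library labelled Ts65Dn replicate 3, and no EC fit with the GC trend removed was made. Among genes named above, Pnrc2 (-0.51, adjusted p = 0.00147), Arhgap5 (-0.47, 0.00519), Akr7a5 (0.44, 0.0268) and P2ry12 (-0.45, 0.0226) were past the threshold in the EC as well (log2 fold changes, edgeR). So were Dnajb9 (-0.38, 0.00922), Gclm (-0.28, 0.0145), mt-Atp6 (-0.94, 0.0174), Prpf40b (0.38, 0.0234) and Zfp942 (-0.44, 0.0314, edgeR). St8sia4 (-0.365, 0.0464), Lcorl (-0.47, 0.0467), Exoc3l4 (0.96, 0.0471) and Adcy5 (0.245, 0.0482) passed it too (edgeR). The interferon-stimulated genes had a median of 0.13 in the EC and the mitochondrially encoded genes one of -0.44.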

How the data were processed

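RNA of the HIP was sequenced as single reads of 50 bases. The labels name a poly-A selected, stranded mRNA kit and the study's methods a total RNA kit with rRNA removal, so which transcripts without a poly-A tail were captured is not settled, which bears on mitochondrial and histone genes. The authors demultiplexed the reads (bcl2fastq 2.17.1.14 in the submitters' processing notes, which also name DESeq2 and mm10), aligned them with Hisat2 to GRCm38 and counted them per Ensembl gene with HTSeq-count. The deposited values are raw counts per gene, not normalized. The strand setting of the counting is not given in the sources used here, so reads of overlapping genes on opposite strands may not be separated. Other deposited tables hold the authors' own fold changes and p-values and were not used.

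Genotype was taken from the labels. Genes passing filterByExpr were normalized by TMM and tested across all genes with edgeR 4.0.16 (quasi-likelihood, R 4.3.3) with Benjamini-Hochberg adjustment, 6 mice against 6 and again without the library labelled Ts65Dn replicate 3. CPM are TMM-normalized. GC content and length trends were removed per library as offsets in an alternative fit. DESeq2 1.42.0 and limma 3.58.1 were alternatives. Biotype, position and GC content came from GENCODE vM21 (99.6% of genes matched), and promoters from RefSeq (GRCm38.p6). The fits were tested on simulated data. The replicates are separate mice.

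The members, gene lists and tests were chosen with earlier results of these data known. Named genes were the 12 largest changes in each direction among DEGs whose groups did not overlap, the 6 largest further ones in each direction without the library labelled Ts65Dn replicate 3, and up to 4 DEGs of each list by p, with predicted genes left out of the rules on size. Genes named outside this rule are defining markers, overlapping genes or members of runs, or were named after their values were seen. Cd74, Irf7 and Rps21 are among the last. Alternatives were other normalization, filters, thresholds, tools, a replicate block and leaving out each mouse. A few gene-level and list-level results are not reported here.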

Additional observations from a re-analysis of the deposited data

Results flagged for a closer look

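In 25 of the 232 groups of 6 libraries examined (named genes and gene lists in each genotype), 1 library lay far from the other 5 by Dixon's criterion, which chance meets in about 1 in 20 groups. The library labelled Ts65Dn replicate 3 was that library in 10 of them. Several of these genes (Slc5a11, Tbx1, Rfx5, Mme, Nova1 and Atp6v1c1) were named from the comparison that left it out, so the count is a description and is not to be set against the rate of chance. For Slc5a11 it had 1.40 CPM (others 0.179 to 0.356), for Tbx1 0.680 CPM (others 0.0891 to 0.272), for Rfx5 14.4 CPM (others 7.27 to 9.44), for Mme 16.6 CPM (others 8.87 to 10.3) and for Nova1 56.99 CPM (others 37.5 to 42.9). For Eng it had 23.8 CPM (others 31.6 to 34.5) and for Atp6v1c1 274 CPM (others 323 to 351). Its mean log2 level relative to wt was 0.87 for genes of thalamic and habenular neurons (others -0.61 to -0.12), 0.24 for glucocorticoid-responsive genes (others -0.14 to -0.037) and -0.052 for translation initiation and elongation factors (others -0.01 to 0.011).

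The other Ts65Dn libraries that stood apart were replicate 5 for Fundc1 (52.95 CPM, others 41.4 to 45.5), replicate 6 for Rpl11 (71.0 CPM, others 74.7 to 76.5), replicate 2 for Rps4x (83.1 CPM, others 77.0 to 79.1), replicate 6 for red blood cell genes (0.24, others -0.67 to -0.34) and replicate 2 for dentate granule cell genes (0.16, others -0.26 to -0.10). In wt, replicate 5 stood apart for Stab1 (9.20 CPM, others 9.98 to 10.4), Rgs20 (30.18 CPM, others 24.4 to 26.4) and St8sia4 (30.28 CPM, others 25.4 to 26.6), replicate 6 for Rplp2 (51.8 CPM, others 60.7 to 64.5) and replicate 4 for Fundc1 (67.8 CPM, others 53.4 to 58.3). Among lists, wt replicate 4 stood apart for thalamic and habenular (1.15, others -0.39 to 0.064), CA1 (-0.22, others -0.011 to 0.077) and striatal genes (0.16, others -0.071 to 0.012), and wt replicate 6 for myelin (-0.30, others -0.035 to 0.11) and cholesterol synthesis genes (0.22, others -0.098 to 0.014).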

How the results depend on the processing

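The log2 fold change of no named gene changed sign under the alternatives run. The 85 DEGs outside the triplicated segments of 6 mice against 6 became 416 with DESeq2, 240 at an adjusted p under 0.1, 47 with no filter on low counts, 24 with GC content and length removed and 0 with a minimum fold change of 1.2. The 191 DEGs without the library labelled Ts65Dn replicate 3 became 658, 498, 115, 76 and 5 under the same alternatives. The causes were not tested. Leaving out 1 library gave 13 to 191 DEGs in the first comparison and 53 (without wt replicate 6) to 289 (without Ts65Dn replicate 2) in the second, with 59 without Ts65Dn replicate 1, 60 without wt replicate 3, 67 without Ts65Dn replicate 4, 70 without Ts65Dn replicate 6, 87 without wt replicate 5, 98 without wt replicate 2 and 99 without wt replicate 4. Without Ts65Dn replicates 1 and 2, an alternative added after seeing the data, 4 genes were DEGs, and without Ts65Dn replicates 1, 2 and 3, added likewise, 81 were, 55 higher and 26 lower. That split was 34 higher and 51 lower with all libraries and 97 and 94 without the library labelled Ts65Dn replicate 3. Of the 53 list medians, 10 moved by more than the SD between wt libraries without Ts65Dn replicates 1 and 2 and 19 without replicates 1, 2 and 3, where those of meningeal fibroblasts (0.51 to -0.14) and MHC class II (0.48 to -0.19) changed sign, among others. The interaction had 0 genes past the threshold with or without 1 library, and 32 with no filter on low counts, 6 positive and 26 negative. The replicate numbers of the 2 genotypes share only a number: correlations of same-numbered libraries ran from -0.2239 to 0.1618, and only replicate 6 correlated best with its own number. With a replicate block, 6 and 17 genes were DEGs in the 2 comparisons, and with the replicate block and GC content and length removed, 0 and 15. With GC content and length removed, 23 of the 63 named genes kept their call and 40 did not.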

Other observations

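Some DEGs lay next to each other. In the comparison without the library labelled Ts65Dn replicate 3, and noticed after the data were seen, 4 runs of at least 3 DEGs less than 0.5 Mb apart are described here. On chr17 from 21567008 to 22314837 (GRCm38), beyond the Mmu17 segment, Zfp948, Zfp942, Zfp943 and CT030661.1 were lower, 4 of 12 genes tested there, with a median log2 fold change of -0.26. On chr7 from 141429744 to 141633011, Slc25a22, Rplp2, Pnpla2 and Ap2a2 were higher, 4 of 10 genes tested (median 0.26). On chr4 from 135870918 to 136053428, Pnrc2 was lower and Pithd1 and Rpl11 higher, and on chr1 from 4807788 to 5162529, 1 of Lypla1, Rgs20 and Atp6v1h was higher and the other two lower. Of all genes tested in that comparison, 1.32% were DEGs. The runs were bounded by DEGs, so the way they were chosen raises their shares. No test of their nearness was made.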
